A study of Mus musculus with 2 samples.

Results

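Striatal medium spiny neuron-type nuclei were taken from 2 single-nucleus RNA libraries of mouse hippocampus by 4 conditions on each nucleus. A nucleus had at least 2 UMIs of Rarb, at least 2 UMIs of Rgs9, at least 1 UMI of Gad1 and Gad2 together and no UMI of Drd3 (a UMI, or unique molecular identifier, counts 1 captured RNA molecule). Only nuclei with 500 or more genes, 800 or more UMIs and less than 5% of UMIs from mitochondrial genes were considered. The rule found 133 of 25957 kept nuclei, called striatal-type below. Of these, 126 of 13429 were in the Syn-Cre AAV library, a share of 0.938% (95% interval 0.782 to 1.12), and 7 of 12528 in the vehicle AAV library, a share of 0.0559% (0.0225 to 0.115). All shares carry exact Clopper-Pearson intervals and all levels exact Poisson intervals, which cover counting error only.

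Both libraries came from Bcas2F/F mice, whose Bcas2 gene can be removed by Cre recombinase, so the floxed allele was shared by the control. The Syn-Cre AAV library was made from mice that received AAV2/9-Syn-cre, an adeno-associated virus with Cre under a synapsin promoter, which is active in neurons. The vehicle AAV library was made from mice that received AAV-vehicle. The genotype labels read Bcas2 knockdown for the first and WT for the second, although the titles give Bcas2F/F for both. The age, sex and number of the mice, whether animals were pooled, and the floxed part of the gene were not given in the sources used here. Each group is 1 library, so no replicate error could be had, no difference was tested and p-values are absent.

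Medium spiny neurons are the GABAergic projection neurons of the striatum, the nucleus accumbens and the olfactory tubercle. They receive dopamine and glutamate, and dopamine acts on them through receptors that raise or lower cyclic AMP. Direct pathway neurons carry the Drd1 receptor with the peptide genes Tac1 and Pdyn, and indirect pathway neurons carry Drd2 with Adora2a and Penk. They are not a cell type of the hippocampus, whose own GABAergic cells are local interneurons.

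The promoters of 2 genes on which the results turn are shown from RefSeq (GRCm38.p6), each from 250 bases before to 50 after the gene's start, 5′ to 3′. Rarb, which encodes retinoic acid receptor beta, is the gene used first to choose the nuclei, and Tac1, which encodes the precursor of substance P, had the highest ratio of Drd1-only over Drd2-only nuclei below among genes with 50 UMIs over both. Rarb lies at chr14:16575427-16575726 on the minus strand and Tac1 at chr6:7554811-7555110 on the plus strand. Capitals mark in Rarb a direct repeat as bound by retinoic acid receptors, searched as GTTCA, 6 bases of any kind and GTTCA. In Tac1 they mark TGCGTCA, a variant of the cAMP response element.
Rarb: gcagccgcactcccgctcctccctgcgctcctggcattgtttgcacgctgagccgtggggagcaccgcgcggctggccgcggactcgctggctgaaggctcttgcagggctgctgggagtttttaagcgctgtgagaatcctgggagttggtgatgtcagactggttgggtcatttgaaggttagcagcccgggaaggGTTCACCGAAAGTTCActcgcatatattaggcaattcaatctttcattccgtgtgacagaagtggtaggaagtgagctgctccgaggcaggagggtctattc
Tac1: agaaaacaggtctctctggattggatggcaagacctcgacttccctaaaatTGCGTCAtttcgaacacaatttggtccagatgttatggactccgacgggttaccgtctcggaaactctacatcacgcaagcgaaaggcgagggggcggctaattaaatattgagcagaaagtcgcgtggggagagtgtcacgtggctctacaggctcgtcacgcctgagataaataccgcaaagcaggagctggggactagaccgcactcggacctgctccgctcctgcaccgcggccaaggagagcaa

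Searched on both strands, the direct repeat was found in 25 of 32851 promoters of the same length (0.0761%) and TGCGTCA in 695 (2.12%). The canonical element TGACGTCA, which does not overlap the variant, was in 1.79% of them and in neither sequence shown. A match describes letters only and says nothing of binding in these nuclei.

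The striatal-type nuclei of the Syn-Cre AAV library held 1181972 UMIs, with 2298 in the shallowest nucleus, a median of 8514.5 and 29559 in the deepest. The 7 of the vehicle AAV library held 69949, with a median of 9322. The median over all kept nuclei was 6094 and 2577 UMIs in these libraries. Scrublet, a doublet caller, marked 18 of the 126 (14.3%) and 10.9% of all kept nuclei of that library. The libraries had 56 barcodes in common, and none was a striatal-type nucleus.

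Rarb and Rgs9, which encodes a regulator of G-protein signalling concentrated in striatum, chose the nuclei, so their levels are a description. The median nucleus had 7.5 UMIs of Rarb and 5.5 of Rgs9, and both reached 25. Just inside the rule, 32 nuclei were at 2 UMIs of either gene. Their summed level (CPM, the gene's UMIs per 1000000 UMIs of the group) was 823 for Pde10a, 1021 for Meis2 and 67.1 for Ppp1r1b, against 1704, 1354 and 97.3 CPM over all 126. Just outside, 137 nuclei with 1 UMI of either gene had 841, 620 and 11.6 CPM. A further 60 nuclei were outside through Drd3 alone, of which 29 had 1 UMI of it, and 7 through the lack of Gad1 and Gad2. The 60 had 101 CPM of Ppp1r1b and 247 CPM of Tac1.

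The label was then checked on genes the rule did not use. The striatal-type nuclei carried the dopamine and cAMP machinery of medium spiny neurons. They had little of the 10 genes listed for other GABAergic interneurons, given below. Adarb2, an interneuron gene outside that list, was at 541 CPM, with a UMI in 67 of the 126 nuclei. Levels were set beside 4 groups of the same library, each chosen by marker UMIs. They were 71 islands of Calleja-type nuclei (Drd3), 141 Lhx6 Sox6 interneurons, 633 dentate granule neurons (Prox1, Slc17a7) and 1205 oligodendrocytes (St18, Mobp), glia that should lack striatal neuronal genes.

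Ppp1r1b encodes DARPP-32, a phosphatase inhibitor that integrates dopamine signals. Its level was 97.3 CPM (80.3 to 117) in striatal-type nuclei, 45.0 in islands of Calleja-type nuclei, 4.87 in Lhx6 Sox6 interneurons, 3.09 in granule neurons and 6.43 in oligodendrocytes. The log2 ratio over Lhx6 Sox6 interneurons was 4.24 (exact conditional interval 3.29 to 5.57). The order therefore ran from striatal-type to islands of Calleja-type nuclei, and the other 3 groups followed with levels below 7 CPM.

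Gnal, the G protein alpha subunit that couples dopamine receptors to adenylyl cyclase in striatum, stood at 618 CPM (574 to 664) against 445 in islands of Calleja-type nuclei and 133 in Lhx6 Sox6 interneurons. Adcy5, the adenylyl cyclase of that pathway, stood at 255.5 CPM (227.5 to 286) against 254.6 and 26.2. Its level was thus alike in the first pair of groups within counting error, with a log2 ratio of 0.00 (-0.28 to 0.30). Gng7, a G protein gamma subunit, was at 255.5 CPM against 144 and 25.6.

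Pde10a, a phosphodiesterase that breaks down cyclic nucleotides, was at 1704 CPM (1630 to 1780) and was also present in Lhx6 Sox6 interneurons at 894 CPM, a log2 ratio of 0.93 (0.83 to 1.03). It therefore missed the 2-fold mark used for counts. Meis2, a homeobox factor of striatal precursors and neurons, was at 1354 CPM against 49.9, a log2 ratio of 4.75 (4.44 to 5.10). Phactr1, a regulator of actin and protein phosphatase 1, was detected in all 126 nuclei, at 6700 CPM (6553 to 6849) against 795 CPM in Lhx6 Sox6 interneurons.

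**Figure D1:**
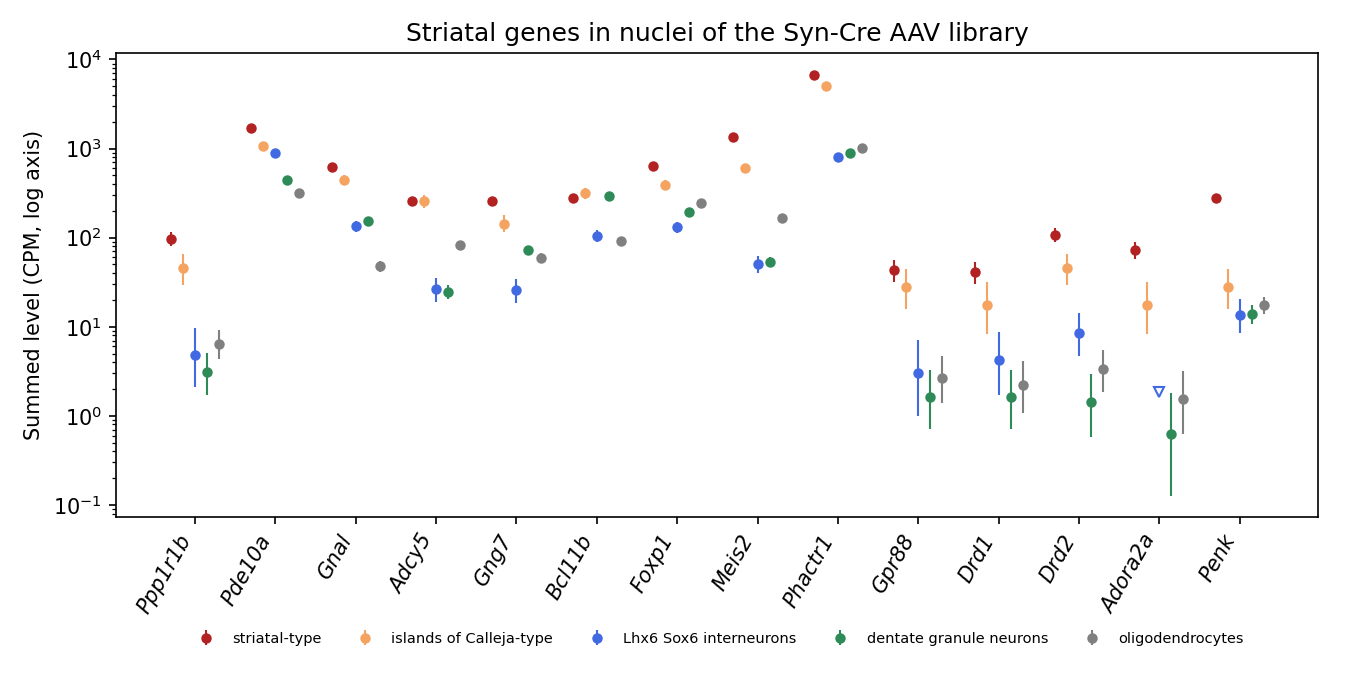
Summed level (CPM, log axis) of 14 striatal genes in 5 groups of nuclei of the Syn-Cre AAV library, with exact 95% Poisson intervals as bars. The open triangle for Adora2a marks the limit that a count of 0 allows (1.83 CPM, 3 UMIs); Ppp1r1b reaches 97.3 CPM in striatal-type nuclei and 4.87 CPM in Lhx6 Sox6 interneurons.

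Of the 28 genes listed for striatal projection neurons, 25 had the 20 UMIs over both groups needed for a ratio to Lhx6 Sox6 interneurons. At least 2-fold higher were 22 and 0 were 2-fold lower, where 6.5% of all 11301 genes tested were higher and 10.2% lower. The list's median log2 ratio was 3.07 and that of all genes tested -0.11. Against granule neurons 21 of 26 were higher and 0 lower (background 7.2% and 10.1% of 13408 genes), with a median of 1.97. Against islands of Calleja-type nuclei 6 of 26 were higher and 0 lower (background 3.09% and 4.28% of 9569), with a median of 0.50. Those 6 included Meis2 (1.17), Rxrg, a retinoid X receptor (1.98), and Gprin3 (1.40). The listed genes left out of the first comparison were Rasd2, Ankrd63 and Ido1, with 18, 6 and 1 UMIs in striatal-type nuclei. Ppp1r1b, with 115 UMIs in striatal-type nuclei and 4.87 CPM in Lhx6 Sox6 interneurons, reached the minimum through the former. It is therefore no support for this list or for the dopamine and cAMP list below. How many of the 22 reached it in the same way is not given here.

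A single nucleus carried a median of 17 of the 28 listed genes, from 3 to 24. With every nucleus thinned to 2000 UMIs the median was 10 in striatal-type nuclei, 6 in islands of Calleja-type nuclei, 5 in granule neurons and 3 in both Lhx6 Sox6 interneurons and oligodendrocytes. Thinning left out 375 oligodendrocytes and 10 granule neurons that were shallower.

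Among all genes with 100 UMIs in striatal-type nuclei and a UMI in 25% of them, 2340 in all, the 25 with the highest ratio over all other kept nuclei were named. These ratios come from the contrast that chose the nuclei and are a description. Of the 25, 13 were on the lists, among them Drd2 (4.47), Penk (4.09), Ppp1r1b (4.03), Tac1 (3.53) and Foxp2 (3.45, all log2). The highest was Mhrt, a noncoding RNA antisense to a cardiac myosin gene. It stood at 239 CPM (212 to 269) against 3.14 CPM in the other nuclei, a log2 ratio of 6.25.

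Mhrt was detected in 84 of the 126 nuclei, with at most 15 UMIs in 1 nucleus. The striatal-type nuclei were 0.938% of the nuclei and held 1.34% of the UMIs of their library, and they held 50.8% of its 557 Mhrt UMIs. Myh6 and Myh7, the cardiac myosin genes, had 2 and 14 UMIs in them, and strand use in counting was not given in the sources used here, so reads of Mhrt and its antisense partner cannot be told apart. For Adora2a that share was 51.5% and for Sh3rf2, a listed striatal gene, 38.6%.

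Other leading genes outside the lists were 1700003D09Rik (4.95), Prkch, a protein kinase C isoform (4.22), Gpr149, an orphan receptor (3.83), Syt6, a synaptotagmin (3.33), Gulp1 (3.28), Cpne5 (2.96), Unc13c, a synaptic vesicle priming protein (2.93), and Kazn (2.78). Islands of Calleja-type nuclei had more of some of them. Gpr149 was at 113 CPM in striatal-type and 170 CPM in islands of Calleja-type nuclei, and Syt6 at 123 and 225 CPM. Depdc5 (2.54) leaned on few nuclei, with 177 of its 607 UMIs in 1 of them.

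The dopamine and cAMP signalling list went beyond the striatal one. Against Lhx6 Sox6 interneurons 22 of 37 measured genes were 2-fold higher and 1 was lower, beside 6.5% and 10.2% of all genes tested, with a median log2 ratio of 1.25. Pde7b, a cAMP phosphodiesterase, was at 579 against 35.3 CPM and Pde4b at 1536 against 206 CPM. Pde4b does not mark these nuclei by itself, since oligodendrocytes had 3323 CPM of it. Among ion channels, against the same background, 18 of 34 were higher and 5 lower (median 1.04). Kcnq5, a subunit of the M-current potassium channel, was at 2034 against 329 CPM, while Kcnc2, a potassium channel subunit of fast-spiking interneurons, was at 91.4 against 1387 CPM.

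Forebrain transcription factors differed between these nuclei and Lhx6 Sox6 interneurons. Of 25 measured, 11 were 2-fold higher and 5 lower than in those interneurons, beside 6.5% and 10.2% of all genes tested. Foxp2, a forkhead factor of striatal neurons, was at 574 against 21.3 CPM, and Six3, a homeobox factor, at 41.5 against 1.22 CPM. Lhx6 was at 3.38 against 119 CPM, but it had chosen the interneurons, so that value only describes the groups.

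Genes of the striosome and matrix, the compartments of the dorsal striatum, were mixed. Against Lhx6 Sox6 interneurons 3 of 7 striosome genes were higher and 1 lower, and 2 of 3 matrix genes were higher and 0 lower. For these and the counts that follow, 6.5% of all genes tested were higher and 10.2% lower. Nnat was at 434 against 71.9 CPM, and Oprm1, the mu opioid receptor gene, at 72.8 against 39.6 CPM. Of 4 ventral striatum genes 3 were higher, among them Crym at 102 against 7.92 CPM and Wfs1 at 82.9 against 7.92 CPM, and 1 was lower. Of 2 dorsal striatum genes measured, Cnr1 and Gpr155, 0 passed 2-fold in either direction.

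Bdnf, the neurotrophin of the study's title, had 7 UMIs in 6 of the 126 nuclei. Its level was 5.92 CPM (2.38 to 12.2), against 54.1 CPM in granule neurons. Ntrk2, which encodes its receptor TrkB, was at 726 CPM (678 to 776) and was at 732 CPM in Lhx6 Sox6 interneurons, a log2 ratio of -0.01 (-0.14 to 0.12). Of 25 measured genes of BDNF-TrkB signalling 3 were 2-fold higher than in those interneurons and 3 lower, where all genes tested gave 6.5% and 10.2%. Camk4, a calcium-dependent kinase, was among the higher at 376 against 73.7 CPM. Of 14 genes of the Prp19 complex, the splicing complex to which Bcas2 belongs, 0 passed 2-fold against those interneurons or against granule neurons. Against granule neurons 7.2% of all genes tested were higher and 10.1% lower.

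Markers of other cell types were low in the summed striatal-type nuclei. The other GABAergic interneuron list summed to 83.8 CPM (68.1 to 102), where Lhx6 Sox6 interneurons had 821 CPM, of which 487 were Sox6 and 119 Lhx6, the genes that chose them. In the striatal-type nuclei 8 of its 10 genes had a UMI, with Th and Pthlh at 0. Of 6 glutamatergic genes all had a UMI, with a sum of 171 CPM against 829 in granule neurons, of which 672 were Slc17a7, a gene that chose those neurons. The oligodendrocyte list of 6 genes, all detected, summed to 301 CPM against 8820 in oligodendrocytes, of which 1400 were St18 and 1098 Mobp, the genes that chose that group. Each reference sum is thus fixed in part by the choice of its nuclei. In the vehicle AAV library the striatal-type nuclei had 872 CPM (667 to 1120) of the latter.

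Genes of cholinergic interneurons, another striatal cell type, gathered in 1 nucleus. That nucleus had 18437 UMIs, with 7 of Chat, which encodes the enzyme that makes acetylcholine, 4 of Slc5a7, the choline transporter gene, and 1 each of Slc18a3 and Lhx8. It also had 5 UMIs of Rarb, 3 of Rgs9, 2 of Drd1, 77 of Phactr1 and 0 of Ppp1r1b. Thus 1 of the 126 carried both kinds of genes, and it counts as a Drd1 nucleus below. It was singled out after its values were seen.

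Drd1 and Drd2, the receptors that divide medium spiny neurons, were not found together in any nucleus. With at least 1 UMI of 1 receptor and none of the other, 30 nuclei (23.8%, 16.7 to 32.2) were Drd1-only and 39 (31.0%, 23.0 to 39.8) were Drd2-only. Neither receptor was detected in 57 (45.2%, 36.4 to 54.3). Both were detected in 0 of 126, which allows a share of up to 2.38% when 3 nuclei stand for a count of 0 and up to 2.89% by the exact interval. Median depth was 8548, 8950 and 8091 UMIs in Drd1-only, Drd2-only and neither-receptor nuclei.

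Detection was thin, which limits these shares. Drd1 had 48 UMIs over 30 nuclei, a median of 1 and at most 5 in 1 nucleus. Drd2 had 127 UMIs over 39 nuclei, a median of 3 and at most 8. A nucleus without a UMI of either receptor is therefore not shown to lack it. With nuclei thinned to 2000 UMIs Drd2 was detected in 13.5% of striatal-type nuclei and 0.24% of oligodendrocytes, and Drd1 in 1.59% and 0.36%, the latter near the level of 1 UMI.

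**Figure D2:**
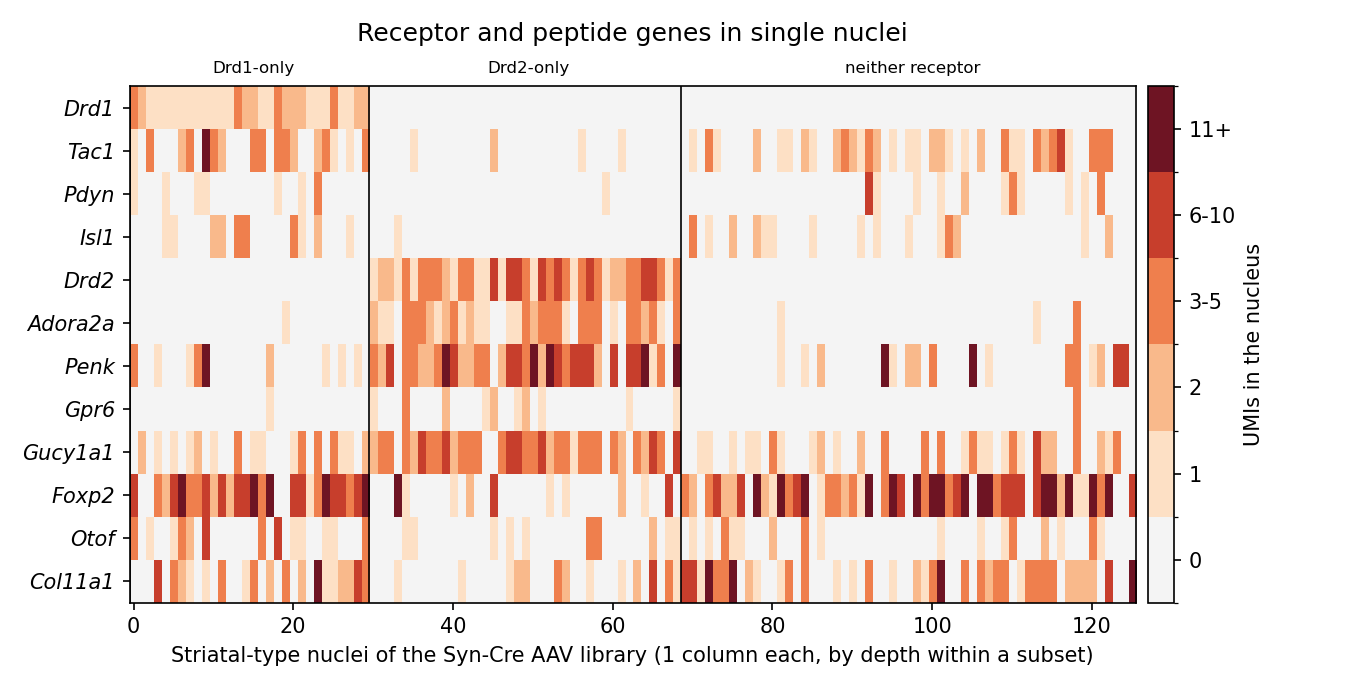
UMIs of 12 genes (rows) in each of the 126 striatal-type nuclei of the Syn-Cre AAV library (columns), ordered by receptor class and then by depth; colour gives the UMI count in steps. Adora2a and Penk UMIs gather in the 39 Drd2-only nuclei, Foxp2 UMIs in the Drd1-only and neither-receptor nuclei, and no column has both Drd1 and Drd2.

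Genes of the indirect pathway followed Drd2. Adora2a, an adenosine receptor gene, had 80 UMIs in 32 of 39 Drd2-only nuclei, 1 UMI in 1 of 30 Drd1-only nuclei and 5 UMIs in 3 of 57 nuclei with neither receptor. The log2 ratio of Drd1-only over Drd2-only nuclei was -5.41 (-11.3 to -3.47), with 0.5 UMI added to each sum. Penk, which encodes the precursor of enkephalins, had 211 UMIs in 34 Drd2-only nuclei, 29 UMIs in 9 Drd1-only nuclei and 87 UMIs in 16 nuclei with neither.

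Penk was thus lower in Drd1-only nuclei, with 97.0 against 559 CPM and a log2 ratio of -2.51 (-3.14 to -1.96), and 16 of its 29 UMIs there lay in 1 nucleus. Of the indirect pathway genes other than Drd2, which chose the classes, 5 had 20 UMIs over both classes, and all 5 were at least 2-fold lower in Drd1-only nuclei. Over all 5882 genes tested 3.49% were 2-fold lower and 3.93% higher. The other 3 were Ptprm, a receptor phosphatase (-2.72), Grik3, a kainate receptor subunit (-2.59), and Gucy1a1, a subunit of the nitric oxide receptor (-1.92). Adora2a and Grik3 reached the minimum through the Drd2-only nuclei, so their lower levels are no support for the list. Ptprm, Penk and Gucy1a1 had 20, 29 and 29 UMIs in Drd1-only nuclei. Gpr6, an orphan receptor of indirect pathway neurons with 16 UMIs, was below the minimum, with 15 UMIs in 10 Drd2-only nuclei and 1 in a Drd1-only nucleus. Sp9, Plxdc1 and Gpr52, also below it, had 6, 4 and 2 UMIs in Drd2-only and 1, 3 and 1 in Drd1-only nuclei.

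Genes of the direct pathway were sparser. Tac1 had 52 UMIs in 17 of 30 Drd1-only nuclei and 5 UMIs in 4 of 39 Drd2-only nuclei, a log2 ratio of 3.59 (2.40 to 5.40). Isl1, a LIM-homeobox factor of direct pathway neurons, had 22 UMIs in 10 nuclei against 1 UMI in 1, a log2 ratio of 4.24 (2.17 to 10.2). These were the only 2 of 9 listed genes, beside Drd1, with enough UMIs. Each reached the minimum through the Drd1-only nuclei, so that both were higher is no support for the list.

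Below the minimum, Pdyn, which encodes the precursor of dynorphins, had 11 UMIs in 7 Drd1-only nuclei against 1 UMI in 1 Drd2-only nucleus. Ebf1 had 14 UMIs against 0, at least 5.89-fold higher when set against the 3 UMIs that a count of 0 allows. Its 14 UMIs lay in 2 nuclei. Eya1 went the other way, with 2 UMIs against 9.

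The shared machinery differed less between the receptor classes. Of 22 measured striatal projection neuron genes 20 lay within 2-fold and 2 were lower in Drd1-only nuclei, Pde7b (-1.03) and Scn4b, a sodium channel subunit (-1.54). Over all genes tested 3.49% were lower and 3.93% higher. Ppp1r1b was at 110 and 127 CPM, a log2 ratio of -0.20 (-0.89 to 0.46). Meis2, at 1013 and 1813 CPM, had a log2 ratio of -0.84 (-1.04 to -0.64). The list's median was -0.30, where all genes tested had 0.03.

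**Figure D3:**
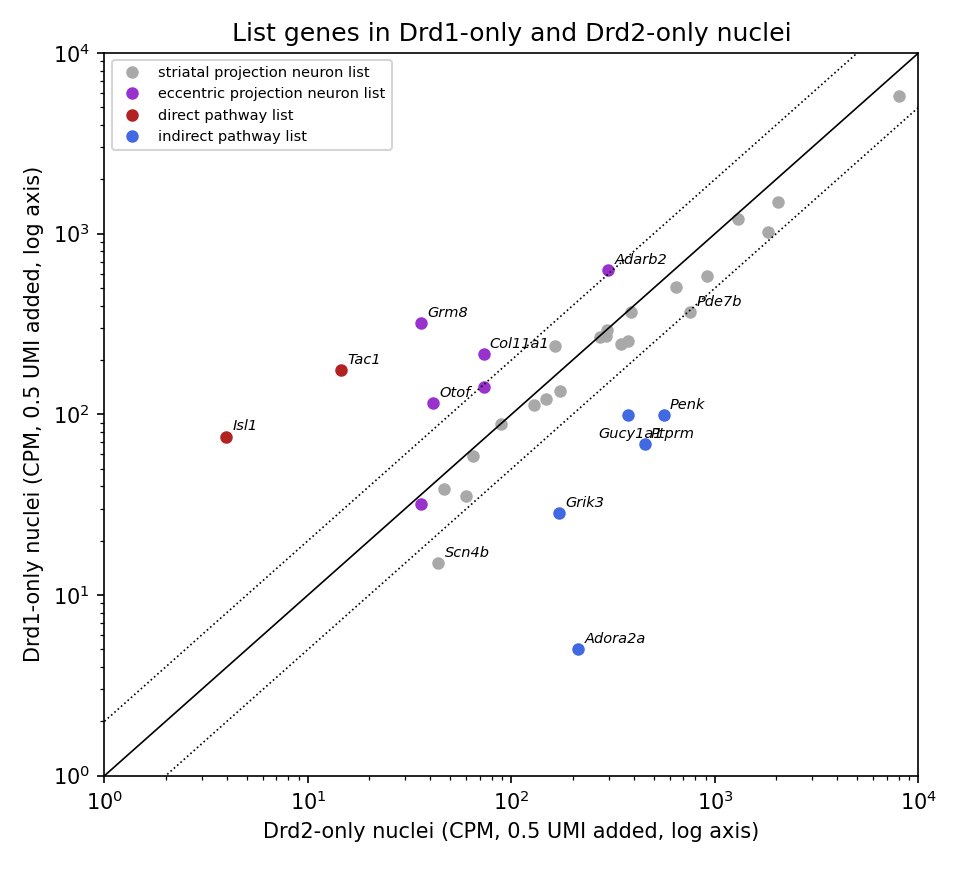
Level of each listed gene with 20 UMIs over both classes in Drd2-only (x axis) and Drd1-only nuclei (y axis), in CPM with 0.5 UMI added, both on log axes. The solid line marks equal levels and the dotted lines 2-fold; the 5 indirect pathway genes lie below the lower line, Tac1 and Isl1 above the upper, and 20 of 22 striatal projection neuron genes between them.

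Among genes with 50 UMIs over both classes, the 10 highest in Drd1-only nuclei were Tac1, Grm8 (3.16), Foxp2 (2.84), Gfra1 (2.69), Lingo2 (2.67), Pbx3 (2.62), 6530403H02Rik (2.06), Sorcs1 (1.72), Sdk1 (1.70) and Adcy2 (1.68). Foxp2 was at 672 CPM in Drd1-only and 92.8 CPM in Drd2-only nuclei and was detected in 26 of 30 and 10 of 39. Pbx3, a homeobox factor, was at 562 and 90.1 CPM. Lingo2, a synaptic adhesion protein, was at 1863 and 292 CPM.

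The 10 highest in Drd2-only nuclei, given as log2 of Drd1-only over Drd2-only, were Adora2a, Adk (-2.96), Ptprm, Grik3, Penk, Npas3 (-2.30), mt-Nd1 (-2.04), Foxo1 (-2.01), Gucy1a1 and Htr2c (-1.77). Adk encodes adenosine kinase, which removes adenosine, the ligand of the receptor that Adora2a encodes. It was at 376 CPM in Drd2-only nuclei, in 33 of 39, and at 46.8 CPM in Drd1-only nuclei. Htr2c, a serotonin receptor gene, was at 403 and 117 CPM.

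Grm8, a metabotropic glutamate receptor gene, is also on the list for eccentric projection neurons, a minor class of striatal projection neurons described in mouse. Of 6 measured genes of that list 4 were higher in Drd1-only nuclei and 0 lower, beside 3.93% and 3.49% of all genes tested. Otof was at 114 and 39.8 CPM, Col11a1, a collagen chain, at 214 and 71.6 CPM, and Adarb2 at 629 and 297 CPM. Grm8 and Otof had 13 and 15 UMIs in Drd2-only nuclei. Both reached the minimum through the Drd1-only nuclei, so their higher levels are no support for the list. Col11a1 and Adarb2 had 27 and 112 UMIs in Drd2-only nuclei. Against islands of Calleja-type nuclei, 4 of 8 measured genes of the list were lower in striatal-type nuclei and 0 higher. Of all genes tested there 4.28% were lower and 3.09% higher.

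Nuclei with neither receptor had genes of both classes. Of these 57, 24 had a UMI of Tac1 or Pdyn but of neither Penk nor Adora2a, 7 had Penk or Adora2a but neither Tac1 nor Pdyn, 10 had genes of both kinds and 16 had none. Tac1 was in 33 of the 57 at a summed 140 CPM, near the 174 CPM of Drd1-only nuclei. Foxp2 was in 48 of 57 at 874 CPM. Adora2a was at 9.89 CPM against 212 CPM in Drd2-only nuclei.

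By detection in the same nucleus, Adora2a was found with Drd2 in 32 nuclei and without it in 4. Tac1 was found with Drd1 in 17 nuclei and without it in 37. Penk was found with Drd2 in 34 and with Drd1 in 9. Most Adora2a nuclei thus had Drd2, while most Tac1 nuclei had no Drd1 UMI.

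The striatal-type nuclei also differed from most other nuclei of their library in sex-linked RNA. Xist, the noncoding RNA of the inactive X chromosome, was at 1480 CPM (1411 to 1551) and the Y-linked genes Ddx3y, Uty, Kdm5d and Eif2s3y summed to 77.8 CPM (62.7 to 95.5). In all other kept nuclei of that library the levels were 678 and 279 CPM. Xist without a Y-linked UMI was found in 91 of 126 striatal-type nuclei (72.2%, 63.5 to 79.8) and in 28.9% of the other nuclei. Islands of Calleja-type nuclei, which are among those others, were close at 66.2% (54.0 to 77.0).

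A Y-linked UMI without Xist was found in 1 of 126 striatal-type nuclei (0.794%, 0.0201 to 4.34), in 44 of 141 Lhx6 Sox6 interneurons (31.2%, 23.7 to 39.5) and in 42.0% of granule neurons. Islands of Calleja-type nuclei were in between at 8.45% (3.16 to 17.5), an interval that overlaps that of the striatal-type nuclei. Thinned to 2000 UMIs, the shares were 0.794%, 24.8%, 31.9% and 5.63% in the same order. The pattern held in each receptor class, with 0 of 30 Drd1-only, 1 of 39 Drd2-only and 0 of 57 neither-receptor nuclei. In the vehicle AAV library 5 of 7 had Xist without a Y-linked UMI (71.4%, 29.0 to 96.3). A Y-linked UMI without Xist was in 1 of 7 there (14.3%, 0.361 to 57.9). The other kept nuclei of that library had shares of 42.2% and 28.2%, which lie within these intervals, so the 7 nuclei do not show the trait.

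**Figure D4:**
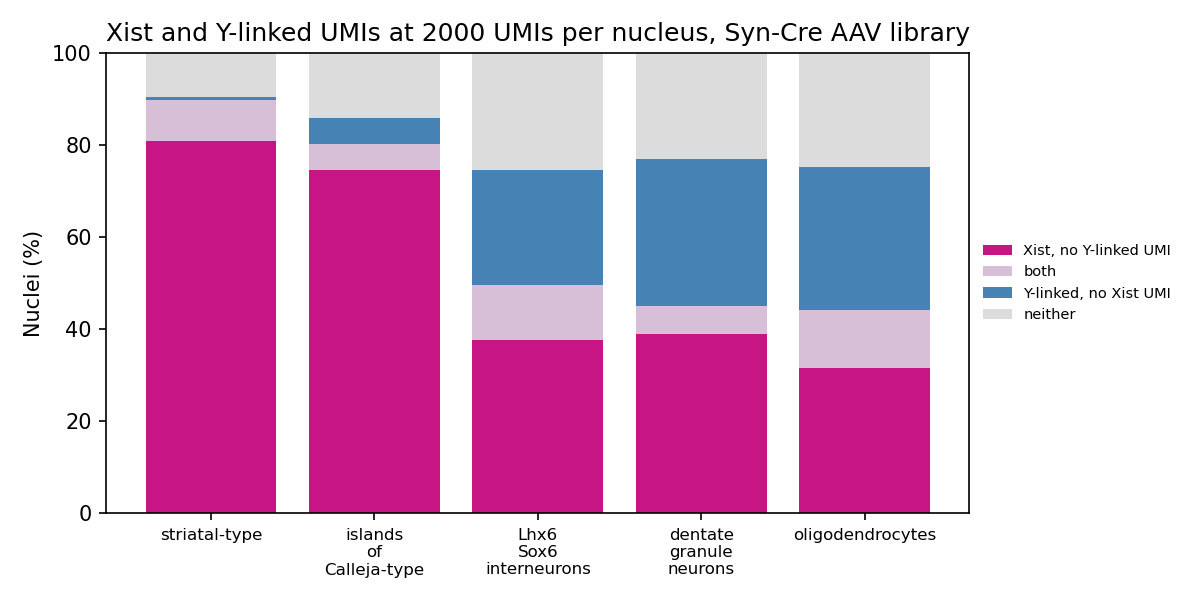
Share of nuclei (%, y axis) with UMIs of Xist, of the 4 Y-linked genes, of both or of neither, for 5 groups of the Syn-Cre AAV library after thinning to 2000 UMIs per nucleus. Nuclei with Y-linked UMIs and no Xist make up 0.794% of striatal-type nuclei and 24.8% of Lhx6 Sox6 interneurons.

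The striatal-type nuclei thus lay further toward Xist than Lhx6 Sox6 interneurons, granule neurons and oligodendrocytes of this library. Islands of Calleja-type nuclei shared the trait, with overlapping intervals for the shares of nuclei. Their summed levels were 1188 CPM (1101 to 1280) of Xist and 137 CPM (108 to 171) of the Y-linked genes. The labels do not tie nuclei to animals. These sex-linked levels differ between striatal-type nuclei and the other groups compared above, and their part in those comparisons was not tested. Between the receptor classes the intervals overlapped, with Y-linked sums of 63.5 CPM (38.3 to 99.2) in Drd1-only and 74.2 CPM (49.3 to 107) in Drd2-only nuclei.

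The comparison of Syn-Cre AAV with vehicle AAV, which asks what loss of Bcas2 does, rests on 126 against 7 nuclei. Bcas2 had 30 UMIs in 28 of the 126 nuclei (25.4 CPM, 17.1 to 36.2) and 1 UMI in the 7 (14.3 CPM, 0.362 to 79.7). The log2 ratio was 0.83 without and 0.27 with the 0.5 UMI added to each sum, and its interval from -1.76 to 6.18 covers higher and lower levels alike, so a loss was not detectable at this depth. A tag outside the floxed part would not show its removal.

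Each of the 7 vehicle nuclei had many of the striatal genes. Their depths were 13651, 12923, 11713, 9322, 8970, 7359 and 6011 UMIs, with 117, 77, 78, 208, 68, 64 and 34 UMIs of Phactr1. Drd2 had 3, 3 and 1 UMIs in 3 of them, and Drd1 had 0 in all 7. Each had from 14 to 23 of the 28 striatal projection neuron genes, with a median of 20.

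Of 8227 genes with 20 UMIs over both libraries 16.1% had levels 2-fold or more above and 11.7% levels 2-fold or more below vehicle in Syn-Cre AAV nuclei, with a median log2 ratio of -0.09. Of these genes 872 had 0 vehicle UMIs, and with each of them set at the bound that 3 UMIs give, the higher genes were 469 in place of 1326, beside 964 lower, and the median was -0.24. Of 25 striatal projection neuron genes 0 were higher and 6 lower, with a median of -0.57. Ppp1r1b was at 97.3 CPM in Syn-Cre AAV and 315 CPM (197 to 476, 22 UMIs) in vehicle AAV nuclei, a log2 ratio of -1.72 (-2.36 to -0.96). Its 7 vehicle counts were 4, 7, 5, 0, 2, 3 and 1 UMIs, so the level did not rest on 1 nucleus. Bcl11b, which encodes the factor CTIP2, was at 278 and 672 CPM, a log2 ratio of -1.29 (-1.72 to -0.80).

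Other members of that list did not differ to this extent. Pde10a was at 1704 and 1730 CPM, a log2 ratio of -0.03 (-0.29 to 0.26), and Gnal at 618 and 772 CPM, -0.33 (-0.72 to 0.10). The median of the list turned to 0.03 where 1 UMI of Rarb and of Rgs9 was enough to choose the nuclei. Oligodendrocyte genes, which neurons should lack, had a larger difference, with a median of -1.69. At least 2-fold lower in Syn-Cre AAV nuclei were 5 of 6 of them, beside 11.7% of all genes tested. Whether such RNA bears on the other ratios was not tested.

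**Figure D5:**
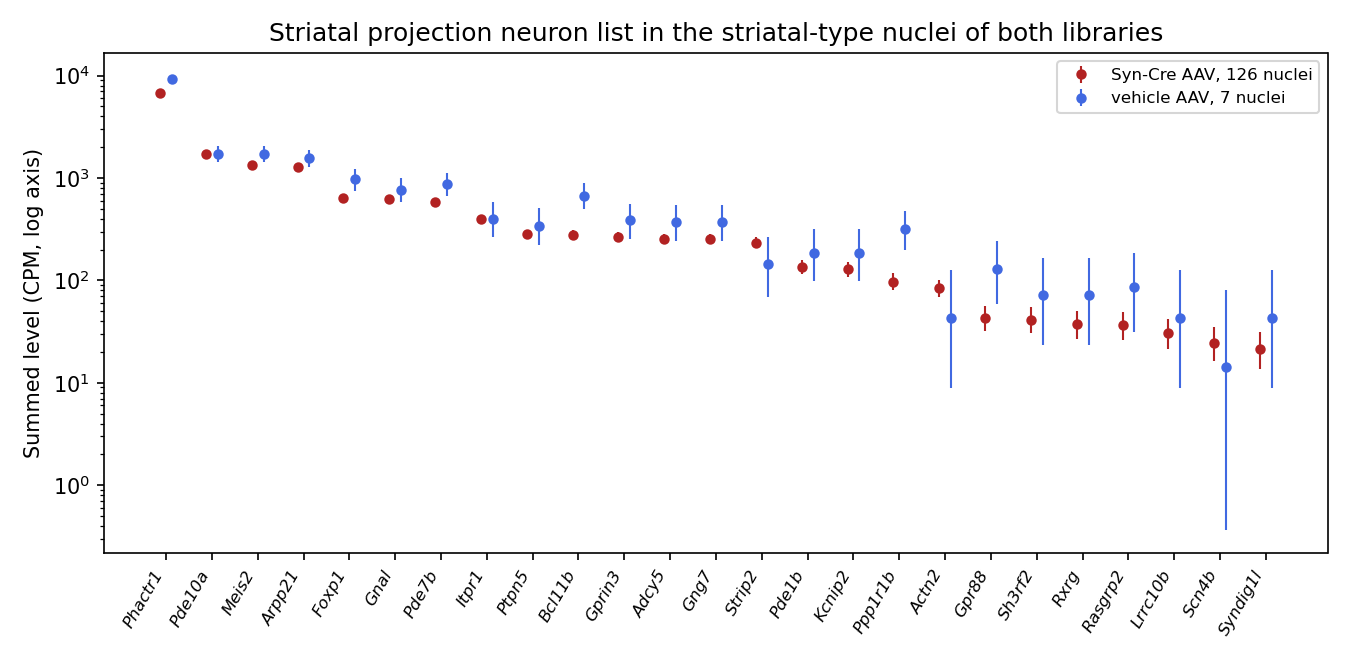
Summed level (CPM, log axis) of the 25 measured striatal projection neuron genes in the 126 striatal-type nuclei of the Syn-Cre AAV library and the 7 of the vehicle AAV library, with exact 95% Poisson intervals as bars. The vehicle intervals are wide; Ppp1r1b and Bcl11b lie lower in the Syn-Cre AAV library (97.3 against 315 CPM and 278 against 672 CPM).

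A count of 0 in the 7 nuclei allows up to 42.9 CPM when 3 UMIs stand for it, and up to 52.7 CPM by the exact interval. All 10 genes with the highest ratio had 0 vehicle UMIs. Set against 3 UMIs, Cdh18, a cadherin, with 459 UMIs in 90 nuclei, was at least 9.05-fold higher in Syn-Cre AAV nuclei, Tafa1 at least 4.73-fold and Kcnj3, a potassium channel subunit, at least 3.37-fold. Greb1l, Cdh7, Slc9a9, Grm8, Pip5k1b, Il1rapl2 and Nxph1 followed, from at least 3.61-fold down to at least 2.47-fold. Oligodendrocytes of the libraries differed too, at 137 CPM of Cdh18 in Syn-Cre AAV against 22.8 in vehicle AAV. Tafa1 was at 367 against 83.5 CPM in them and Kcnj3 at 135 against 45.1 CPM. Only Slc9a9 among the 10 was lower there in Syn-Cre AAV, at 153 against 200 CPM. Whether a difference across the whole library bears on these ratios was not tested.

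Among the 10 lowest were Bach2 (-2.45), Fbxl16 (-2.17), Gpc6 (-2.02), Alk (-1.89), Dach1 (-1.88), Syt6 (-1.87), Rasgef1b (-1.79), Ptprm (-1.76) and Pcdh15 (-1.74). Bach2, a transcription factor on the striosome list, was at 79.5 CPM in Syn-Cre AAV and 429 CPM in vehicle AAV nuclei.

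For immediate early genes, switched on by neuronal activity, the 7 nuclei set a limit. Of 10 measured 7 were 2-fold higher by the fitted ratio, beside 16.1% of all genes tested, with a median of 1.61. All 7 had 0 vehicle UMIs. With such genes set at their bound, 0 of 10 were 2-fold higher and the median was -0.08. Nr4a1, with 77 UMIs in the 126 nuclei and 0 in the 7, was at least 1.52-fold higher. In oligodendrocytes Nr4a1 was at 48.3 CPM in Syn-Cre AAV and 11.1 CPM in vehicle AAV. For the direct pathway list the same step took 4 of 6 higher to 0, and the median from 1.98 to -0.18. Of 12 measured Prp19 complex genes 4 were higher and 0 lower, beside 16.1% and 11.7% of all genes tested. With the 2 genes at 0 vehicle UMIs set at their bound, 2 were higher and the median went from 0.39 to -0.33. Those still higher, Ctnnbl1 and Cwc15, had 1 vehicle UMI each.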

How the data were processed

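Hippocampal nuclei were freed with a dounce, cleared of debris by a propidium iodide sort and captured with a droplet kit that tags RNA at the 3′ end, per the labels' protocols. The authors deposited unnormalized UMI counts for each gene in each barcode, and the file headers name Cell Ranger 9.0.1. Among the tools in the submitters' processing notes are Seurat 4.1.0 and bcl2fastq 5.0.1, with GRCm39 as build. Whether intronic or strand-specific reads were counted was not given in the sources used here.

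From these counts, UMIs were summed per group and scaled to its total (CPM) with Python 3.11.15, numpy 2.4.6, scipy 1.17.1 and pandas 2.3.3. Totals were 90594923 UMIs (Syn-Cre AAV, 16693 barcodes) and 41781481 (vehicle AAV, 12621 barcodes). Log2 ratios have 0.5 UMI added, except for Bcas2, need 20 UMIs over both groups, and carry exact conditional binomial intervals without the addition. All intervals are at 95%, and a count of 0 is set at 3. The ratio code was tested on simulated data. Comparison groups needed at least 2 UMIs of Drd3 and 1 of Gad1 and Gad2, or 1 UMI of Lhx6, 2 of Sox6 and 1 of Gad1 and Gad2, or 2 of Prox1, 1 of Slc17a7 and none of Gad1 and Gad2, or 2 each of St18 and Mobp. Nuclei that met more than 1 of these rules were left out. Doublets were marked with Scrublet in scanpy 1.11.5 as the top scores at 0.8% per 1000 barcodes and kept. edgeR 4.0.16 in R 4.3.3 gave TMM factors for an alternative only. Named genes were all list members, the 25 leading genes, and the 10 highest and lowest ratios between receptor classes (50 UMIs) and between libraries (100 UMIs). Some genes that this rule names are not reported here. The members, the gene lists and the comparisons were chosen with earlier results of these data known. Other settings were the nuclei filter, the Rarb and Rgs9 minimum, doublets, scaling, depth, gene minimum and receptor minimum.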

Additional observations from a re-analysis of the deposited data

How the results depend on the processing

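Of 101 values of 12 results under 11 other settings, 72 stayed close to the reported value, 27 moved and 2 changed sign. The share of striatal-type nuclei in the Syn-Cre AAV library (0.938%) was 0.755% with a looser and 1.14% with a stricter nuclei filter, 1.96% with 1 UMI of Rarb and of Rgs9 and 0.700% with 3. In the vehicle AAV library (0.0559%) it was 0.208% with 1 UMI. Drd1-only nuclei (23.8%) were 1.59% at 2000 UMIs per nucleus and 9.52% with 2 UMIs of the receptor. Drd2-only nuclei (31.0%) were 13.5% and 22.2% in the same order and 19.0% with 1 UMI of Rarb and Rgs9. Both receptors together stayed at 0% under each setting run. The striatal projection neuron median over Lhx6 Sox6 interneurons (3.07) was 2.39 with 1 UMI of Rarb and Rgs9, 3.41 without Scrublet-marked nuclei, 2.71 at 2000 UMIs and 2.66 over genes with 50 UMIs. The higher direct pathway genes (2) were 1 with 3 UMIs of Rarb and Rgs9, with 2 UMIs of the receptor or over genes with 50 UMIs, 4 over genes with 10 UMIs and 0 at 2000 UMIs, where indirect pathway genes (5) were 1. Fewer genes reach the minimum in these settings, except with 10 UMIs.

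Between the libraries, genes at least 2-fold higher in Syn-Cre AAV nuclei (1326) were 572 at 2000 UMIs and 568 over genes with 50 UMIs. Genes at least 2-fold lower (964) were 526 with TMM scaling, 501 at 2000 UMIs, 1793 over genes with 10 UMIs and 288 over genes with 50. The striatal projection neuron median (-0.57) was -0.31 with TMM scaling and reversed to 0.027 with 1 UMI of Rarb and Rgs9. Bcas2 (0.83) reversed to -0.71 (-3.49 to 4.72) at 2000 UMIs, from so few UMIs that either sign lies within counting error. The cause of these shifts was not tested. No paired analysis was possible because each group has 1 library. With 7 vehicle AAV nuclei, depth limits every comparison between the libraries.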
